A study of Homo sapiens with 4 samples.

Results

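Unstimulated DAOY cells with enforced expression of ZNF521 were compared with unstimulated control cells, through 1 RNA-Seq library of each, ZNF521_DMSO and CTL_DMSO. All genes with at least 10 raw counts in at least 1 of these 2 libraries were taken, which gave 15234 of the 20363 genes in the count table. DAOY is an established line from a human medulloblastoma of the cerebellum. Both libraries came from cells given DMSO, the vehicle of the drug, and the other 2 libraries of the series, CTL_SAG and ZNF521_SAG, came from the same kinds of cells given SAG, an agonist of SMO. The deposited design calls the control cells WT, while the study's text gives them an empty lentiviral control vector, so that which of these was sequenced is not settled. With WT controls, the comparison also holds the effect of transduction. ZNF521 was delivered by a lentiviral vector in which a ubiquitin promoter drives the transgene together with EGFP, and transduced cells were sorted for EGFP.

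ZNF521 is a zinc finger transcription co-factor of immature cells that recruits the HDAC-containing NuRD complex and antagonizes the factor EBF1. In the SHH pathway, the ligand SHH binds the receptor PTCH1, which otherwise restrains SMO, and active SMO releases the GLI factors from the inhibitor SUFU. GLI1 and PTCH1 are themselves targets of the GLI factors and are commonly read as a measure of pathway activity. The pathway drives the growth of cerebellar granule cell progenitors and of a subgroup of medulloblastomas. The comparison asks how the transcriptomes of ZNF521 and control cells differ when no agonist is added, and with 1 library of each it can describe the difference between these libraries only.

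The libraries held 13468912 counts in CTL_DMSO and 13366535 in ZNF521_DMSO, and the size factors by which the authors divided them were 0.995 and 0.972. There is 1 library a side and no replicate, so the difference within DMSO has no test. A difference is given as the ratio of normalized counts with its exact 95% interval (Clopper-Pearson) from the raw counts of the pair, which covers counting error only. A gene was called higher or lower where this ratio reached 1.5-fold and the interval lay on 1 side of no change. The CTL_DMSO library stood apart from the rest. Among the 9161 genes averaging 200 normalized counts or more, log2 deviations from the 4-library mean had an SD of 0.274 in CTL_DMSO, compared with 0.126 in ZNF521_DMSO, 0.143 in CTL_SAG and 0.140 in ZNF521_SAG. For this reason the ratio of ZNF521_SAG to CTL_SAG, a pair that shares no library with the DMSO pair, is set beside the main results.

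Mesenchymal markers were high in both libraries. VIM, an intermediate filament protein, had 29381 and 25013 normalized counts in CTL_DMSO and ZNF521_DMSO, and THY1, a surface glycoprotein, had 2730 and 2840. Summed over the 5 mesenchymal markers, which include COL1A1, the level was 57782 in CTL_DMSO and 38597 in ZNF521_DMSO. All 6 haematopoietic markers had fewer than 10 counts in each of them. Of 5 markers of SHH medulloblastoma, PDLIM3, EYA1 and SFRP1 passed the filter. HHIP, a ligand trap induced by the pathway, had 8 raw counts in CTL_DMSO and 7 in ZNF521_DMSO and lay just outside it, and ATOH1 had 1 in each. Markers of the other medulloblastoma subgroups passed as well. Of those in the count table, 5 of 5 passed for WNT, 6 of 6 for Group 3 and 4 of 5 for Group 4. The markers thus did not single out the SHH subgroup. In bulk RNA, fewer cells of a type and less RNA per cell cannot be told apart.

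ZNF521 itself, the gene whose expression was enforced, was 2.82-fold higher in ZNF521_DMSO. In hg38 it spans positions 25061924 to 25352190 of chromosome 18, minus strand. Its normalized count was 713.7 in CTL_DMSO and 2013 in ZNF521_DMSO, a log2 ratio of 1.496 (95% interval 1.37 to 1.62). With SAG it stood at 751.1 in control cells and 2072 in ZNF521 cells, so that both ZNF521 libraries lay above both control libraries. The targeted gene thus went with the labels of the pair, and control cells already expressed it. Reads of the transgene and of the endogenous gene were not told apart here. The study's methods list human and mouse constructs under the name ZNF521, so which of them these cells carried is not settled. The ratio is therefore not a measure of the transgene's level.

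Over the 15234 genes, 755 (4.96%) were called higher in ZNF521_DMSO and 981 (6.44%) lower. At 2-fold these numbers were 179 (1.18%) and 384 (2.52%), and past 4-fold they were 21 and 72. Lower genes outnumbered higher ones past these folds. Without a minimum fold the balance was the opposite, since 3801 genes had an interval above and 3175 an interval below no change. The median log2 ratio of all genes was 0.02, with quartiles at -0.25 and 0.25. A further 835 genes were past 1.5-fold with an interval that included no change. Among 2908 genes with a mean count of 1000 to 5000 the spread of log2 ratios was 0.279 (a robust SD), while counting error alone gives 0.051. The interval therefore leaves out most of the spread between libraries, and a call says that these libraries differed, not that the conditions did.

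**Figure D1:**
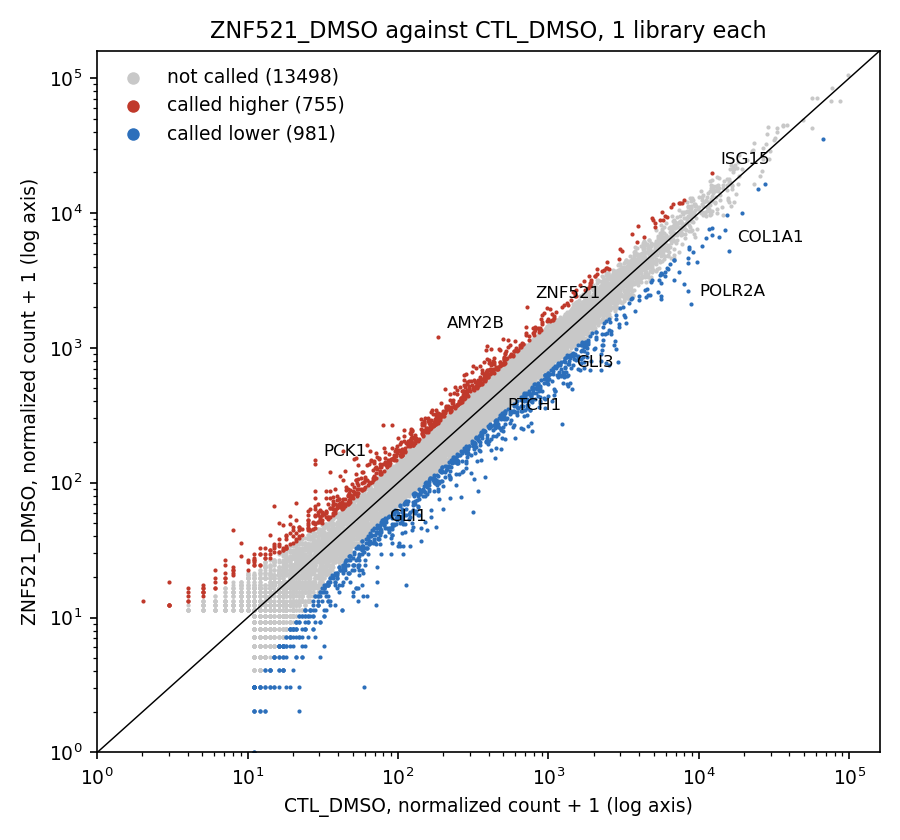
Normalized count plus 1 of each of the 15234 genes in CTL_DMSO (horizontal) and ZNF521_DMSO (vertical), both on log axes, 1 point per gene; the line marks equal values. The 755 genes called higher are red and the 981 called lower are blue, with ZNF521 above the line and POLR2A, COL1A1, GLI3, PTCH1 and GLI1 below it.

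PCK1, the cytosolic enzyme that commits oxaloacetate to gluconeogenesis, had normalized counts of 27.1 in CTL_DMSO and 135.8 in ZNF521_DMSO, a log2 ratio of 2.32 (1.72 to 2.98). With SAG it stood at 19.2 in control cells and 59.9 in ZNF521 cells, again higher with ZNF521. NR0B1, a nuclear receptor without a known ligand, went from 50.3 to 149.2 in the DMSO pair (log2 ratio 1.57) and from 59.8 to 109.7 in the SAG pair (0.88). For PCK1, NR0B1 and ZNF521 alike, both ZNF521 libraries lay above both control libraries.

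IFNL1, a type III interferon, was higher as well. Its normalized counts were 14.1 in CTL_DMSO, 65.9 in ZNF521_DMSO, 23.7 in CTL_SAG and 36.3 in ZNF521_SAG, with a log2 ratio of 2.23 (1.38 to 3.18) in the DMSO pair and 0.62 in the SAG pair. OR52A1, an olfactory receptor gene, was at 27.1 and 146.1 in the DMSO pair and at 92.5 and 116.4 in the SAG pair. AMY2B, a pancreatic amylase, had the highest log2 ratio of these genes, 2.71 (2.49 to 2.95). It rested on 184 normalized counts in CTL_DMSO against 1207 in ZNF521_DMSO, 971 in CTL_SAG and 1035 in ZNF521_SAG, so that CTL_DMSO alone was low. AMY2B has near-identical copies, and its counts could be split among them.

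Several other genes were, like AMY2B, low in CTL_DMSO alone. CENPQ, a protein of the kinetochore, stood at 42.2 in CTL_DMSO and at 169.8, 189.5 and 194.0 in ZNF521_DMSO, CTL_SAG and ZNF521_SAG. TTK, a kinase of the spindle checkpoint, stood at 384.0 in CTL_DMSO and at 963.1, 1081 and 1082 in the same order. SF3B6, a subunit of the U2 spliceosomal particle, was at 391.0 against 1031, 1177 and 1050. RAB13, a GTPase of membrane traffic (log2 ratio 1.77), SCOC, a Golgi protein (1.57), and COMMD8 (1.55) were likewise low in CTL_DMSO only. The same held for OVCH1-AS1 (1.79) and NR2F2-AS1 (1.62), which are antisense RNAs. The counting of strand is not stated, so reads of an antisense RNA and of its partner cannot be told apart. HIST1H2AE, an H2A histone gene, closed the list of 15 genes, with 415.1 counts in CTL_DMSO, 986.8 in ZNF521_DMSO, 772.5 in CTL_SAG and 837.8 in ZNF521_SAG. Over the 15 genes CTL_DMSO was the lowest of the 4 libraries in 14, the exception being PCK1, against 5601 of all 15220 genes. The 15 genes were selected as low in CTL_DMSO relative to ZNF521_DMSO, which favours this outcome.

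Among the 15 genes lowest relative to control cells, POLR2A, the largest subunit of RNA polymerase II (chromosome 17, 7484366 to 7514616 of hg38), had 8882 normalized counts in CTL_DMSO and 2113 in ZNF521_DMSO, 4.20-fold lower (log2 ratio -2.07, interval -2.14 to -2.002). It had 2368 in CTL_SAG and 2150 in ZNF521_SAG, so that only CTL_DMSO was high. TAF10, a subunit of TFIID, was at 311.6 in CTL_DMSO and at 59.7, 59.8 and 72.6 in ZNF521_DMSO, CTL_SAG and ZNF521_SAG. KMT2D, a histone H3 methyltransferase, was at 2401 in CTL_DMSO against 772.8, 770.2 and 753.4, and ATN1, a co-repressor, at 1228 against 271.7, 226.7 and 232.0. In each of these 4 genes the 3 other libraries lay close together and far below CTL_DMSO.

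SRRM2, a scaffold of nuclear speckles, had 8435 counts in CTL_DMSO and 2617, 2776 and 3074 in ZNF521_DMSO, CTL_SAG and ZNF521_SAG. PCBP2 (log2 ratio -1.91) and HNRNPD (-1.71), which bind RNA, and USB1 (-1.79), which trims the U6 RNA, were 3.75-fold, 3.27-fold and 3.45-fold lower in the DMSO pair. In the SAG pair their log2 ratios were -0.18, 0.12 and 0.51. COL1A1, a chain of type I collagen, stood at 15912 in CTL_DMSO, 5241 in ZNF521_DMSO, 4913 in CTL_SAG and 5316 in ZNF521_SAG.

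The other 5 named genes were lower in the DMSO pair and not called in the SAG pair, where each interval included no change. ANKRD30BL had the lowest log2 ratio, -4.82 (-7.90 to -2.91), from 58 raw counts in CTL_DMSO and 2 in ZNF521_DMSO, and stood at 10.1 and 3.37 normalized counts in CTL_SAG and ZNF521_SAG. SLC34A2, a sodium-phosphate cotransporter, was at 70.4 and 11.3 in the DMSO pair and at 38.3 and 27.8 in the SAG pair. TXNDC5, a protein disulphide isomerase, was at 112.6 and 16.5 (log2 ratio -0.46, interval -1.21 to 0.28, in the SAG pair). In the same order of pairs SSC5D, a soluble scavenger receptor, was at 337.7 and 85.4, then 93.6 and 68.3, and MXRA5, a secreted matrix protein, at 780.0 and 238.7, then 355.2 and 321.4. CTL_DMSO was the highest of the 4 libraries in all 15 of the lowest genes, which were selected as high in CTL_DMSO relative to ZNF521_DMSO. ANKRD30BL and TXNDC5 overlap or share sequence with other transcripts, and their low counts are uncertain.

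**Figure D2:**
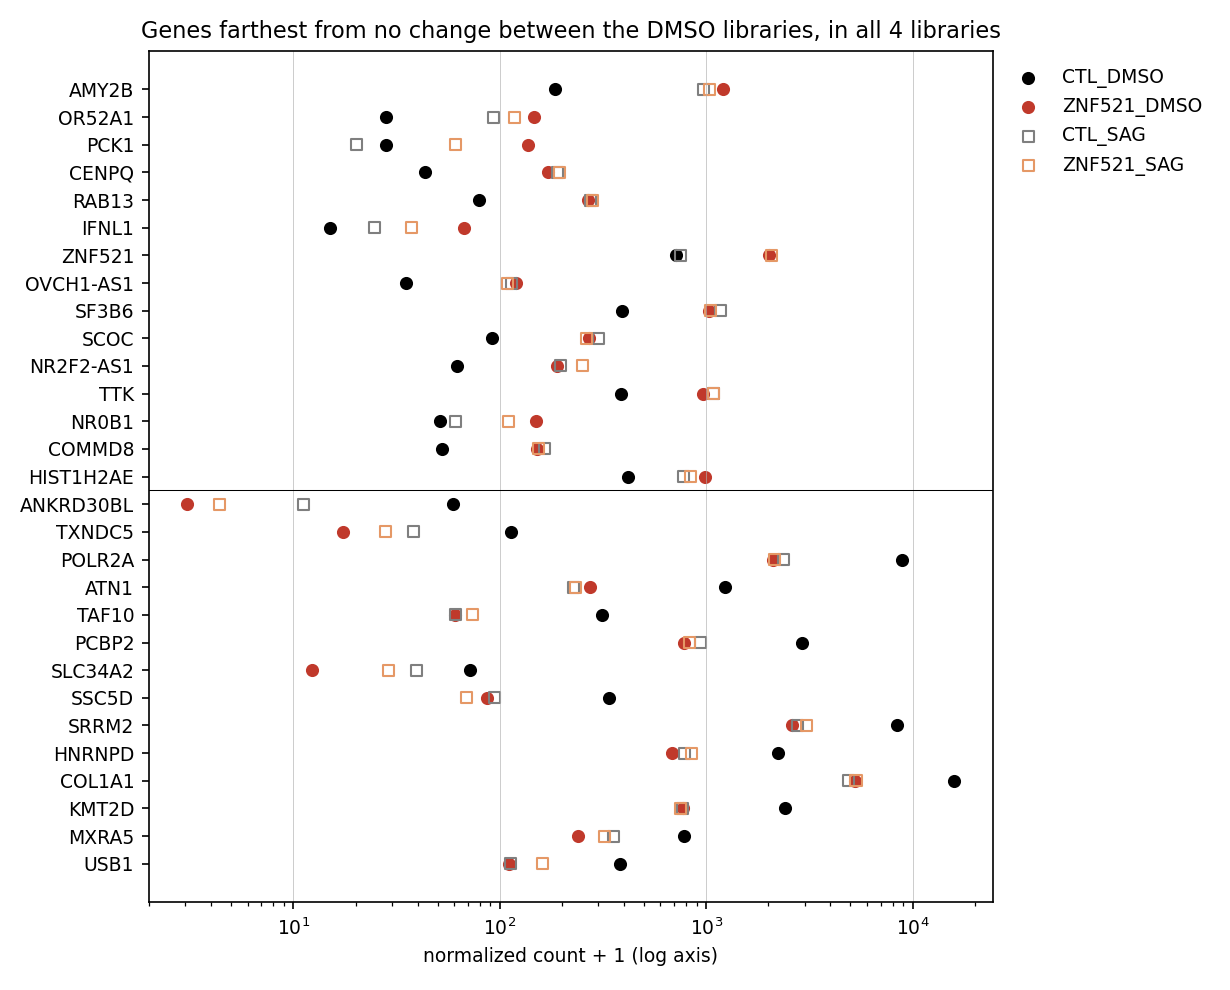
Normalized count plus 1 (log axis) in each of the 4 libraries of the 15 genes farthest above (top) and 14 of the 15 farthest below no change between ZNF521_DMSO and CTL_DMSO; circles are DMSO libraries and squares SAG libraries. CTL_DMSO, the black circle, lies apart from the other 3 libraries for most genes, while for ZNF521, PCK1 and NR0B1 both control libraries lie to the left of both ZNF521 libraries.

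Most genes of the SHH pathway were below no change in ZNF521_DMSO, and several were called lower. GLI1, its terminal activator and target (chromosome 12, 57459785 to 57472268), had 75.4 normalized counts in CTL_DMSO and 44.2 in ZNF521_DMSO, a log2 ratio of -0.77 (-1.34 to -0.21). With SAG it stood at 323.7 and 318.1, level between the cell types (-0.03). PTCH1, the receptor (chromosome 9, 95442980 to 95517057), was at 468.4 and 301.5 in the DMSO pair (-0.64, -0.85 to -0.42) and at 526.6 and 578.8 in the SAG pair (0.14). By RT-qPCR in DAOY cells, the study reported GLI1 and PTCH1 as higher with enforced ZNF521, also without SAG. The ratios of this DMSO pair run the other way, and the reason was not tested. The RefSeq promoter of PTCH1 holds the GLI motif GACCACCCA on the strand opposite to the gene, and the stretch around it is shown because PTCH1 was the only Hedgehog target gene among 18 with a matched promoter that had the motif. It lies at chr9:95509405-95509463 of GRCh38.p14, minus strand, and is printed in the direction of the gene with the motif in capitals, which starts 172 bases before the start site of the RefSeq entry, a start inside the GENCODE gene span given above and not at its end.
PTCH1: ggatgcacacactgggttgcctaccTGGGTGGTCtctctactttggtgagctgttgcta
Over 11632 promoters of passing genes (250 bases before to 50 after the start), 25 (0.215%) held the motif on either strand. It was in 1 of 534 promoters of genes called higher and in 3 of 704 of genes called lower. The core motif of EBF, TCCCNNGGGA, was in 160 of all (1.38%), in 5 of genes called higher and in 12 of genes called lower. A match to letters is a description and not a site.

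All 13 ligands, receptors and co-receptors that passed the filter were below no change, with a median log2 ratio of -0.24, and 3 of them were called lower. The share called lower was 23.1% against 6.44% of all genes. GAS1, a co-receptor, went from 1018 to 636.9 in the DMSO pair (-0.68) and from 603.3 to 442.1 in the SAG pair (-0.45). SHH, the ligand, had 19 and 6 raw counts in the DMSO pair, a log2 ratio of -1.63 (-3.24 to -0.25), and -1.80 in the SAG pair. SHH was thus called lower in both pairs, on few counts, and GAS1 in the DMSO pair only. SMO, the signal transducer, was at 3198 and 2671 (-0.26), and BOC, a co-receptor, at 3925 and 2917 (-0.43). Others were CDON (-0.22), DISP1 (-0.39), GPC3 (-0.17), HHAT (-0.10), LRP2 (-0.08), SCUBE2 (-0.07) and DHH (-0.10), which rested on 11 and 10 counts. In the SAG pair the median of the list was 0.14, and CTL_DMSO was the highest of the 4 libraries for 9 of the 13. Over all genes CTL_DMSO was the highest for 5383 of 15220.

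Of 19 GLI factors and their cytosolic regulators, 5 were called lower and none higher, with a median log2 ratio of -0.17 against -0.01 in the SAG pair. The share called lower was 26.3% against 6.44% of all genes. GLI3, the factor that acts mainly as a repressor, stood at 1349 in CTL_DMSO and at 624.6, 652.9 and 652.2 in ZNF521_DMSO, CTL_SAG and ZNF521_SAG. GLI2 stood at 262.4 against 171.8, 160.1 and 158.6, and SUFU at 565.9 against 338.5, 332.7 and 327.3. PRKACA, a catalytic subunit of the kinase PKA that marks GLI proteins for processing, stood at 1801 against 915.8, 894.3 and 945.8. These 4 genes were high in CTL_DMSO alone. Less the median for its GC content, GLI2 was at -0.51 and GAS1 at -0.57, under 1.5-fold. Members above no change included CSNK1A1 (0.26), PRKAR1A (0.24) and PRKACB (0.12), none of which was called.

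**Figure D3:**
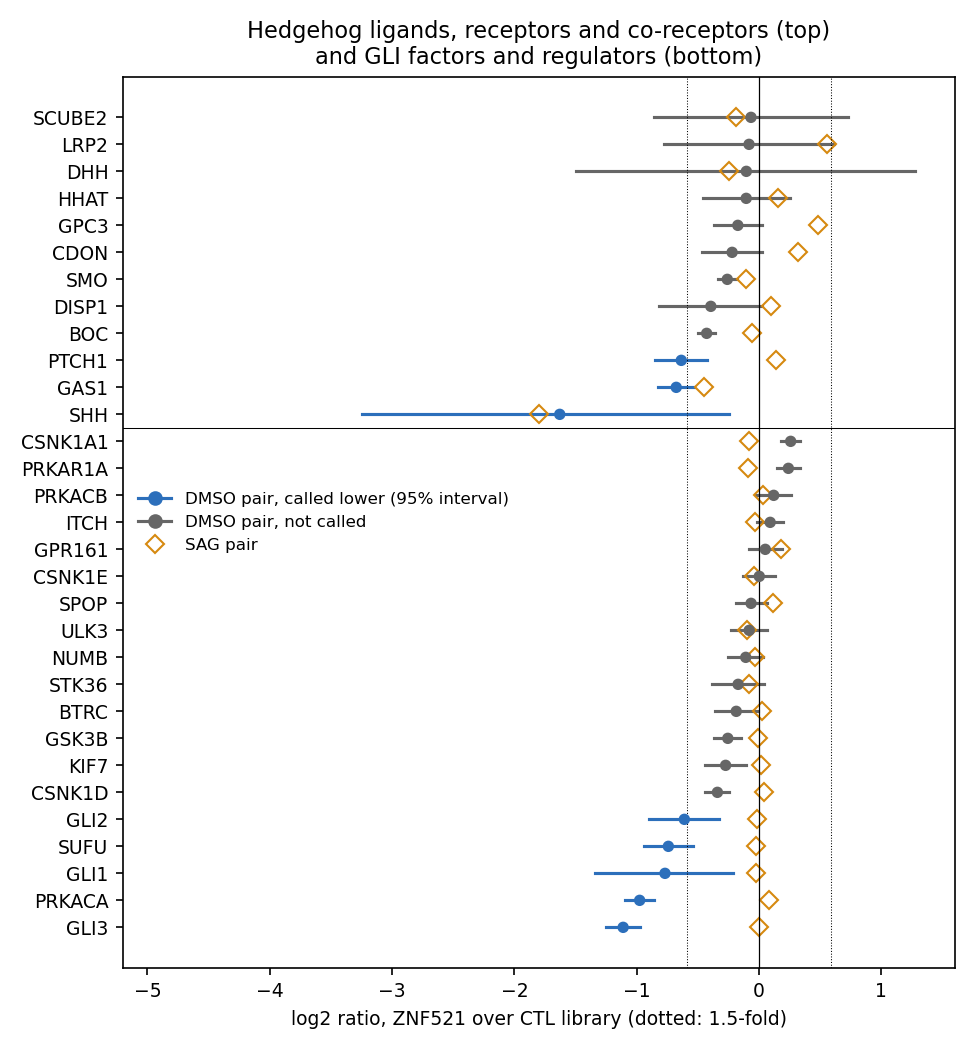
Log2 ratio of ZNF521_DMSO to CTL_DMSO (circles, bars are exact 95% intervals for counting error) for 12 of 13 Hedgehog ligands, receptors and co-receptors and 19 GLI factors and regulators; diamonds are the ratio of ZNF521_SAG to CTL_SAG and dotted lines mark 1.5-fold. Blue members were called lower; of these SHH was called lower in both pairs, and GAS1, PTCH1, GLI1, GLI2, GLI3, SUFU and PRKACA in the DMSO pair only.

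Among 32 Hedgehog target genes that passed the filter, 2 were called higher and 5 lower, and the median log2 ratio was -0.17 (-0.01 in the SAG pair). It was -0.08 after the correction for GC content and -0.24 with a mean count of at least 50. The share called higher, 6.25%, was near the 4.96% of all genes, and the share called lower was 15.6% against 6.44%. The lower genes were GLI1, PTCH1 and GAS1 with NKX2-2 (-0.94) and FOXC2 (-1.22), which are transcription factors. These members did not share 1 direction with the agonist. In control cells GLI1 was at 75.4 without SAG and 323.7 with it, while GAS1 was at 1018 and 603.3. The values of GLI1 and GAS1 without SAG come from CTL_DMSO, the library that stood apart. The count of lower targets is not read here as a measure of pathway activity, which was not tested. FOXC2 stood at 88.5 in CTL_DMSO and at 38.1, 42.9 and 37.1 in the other libraries. The higher genes were SPP1, the matrix protein osteopontin, with 42.2, 103.9, 106.0 and 144.3 counts in CTL_DMSO, ZNF521_DMSO, CTL_SAG and ZNF521_SAG, and MYCN, with 13 and 39 raw counts in the DMSO pair. G1 regulators under the pathway such as CCND1 (0.11) and CCND2 (0.04) were not called. As a list, 17 members were below and 15 above no change.

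ZNF423, its closest paralogue, stood at 1799 in CTL_DMSO, 999.1 in ZNF521_DMSO, 1193 in CTL_SAG and 960.1 in ZNF521_SAG, log2 ratios of -0.85 and -0.31. EBF1 (-0.17), EBF2 (0.01), EBF3 (-0.03) and EBF4 (-0.31), the factors of the family that ZNF521 binds, were not called. Of 15 subunits of the NuRD complex, HDAC2 was called higher (0.65), and GATAD2B (-1.26) and CHD5 (-0.66) were called lower. These shares, 6.67% and 13.3% of a short list, stand beside 4.96% and 6.44% of all genes, and the list median was -0.06. HDAC2 (0.43) and CHD5 (-0.55) were under 1.5-fold after the GC correction. HDAC1, a deacetylase of the complex, was at 2504 and 2516 (0.01). GATAD2B was at 1925 in CTL_DMSO and at 802.6, 844.6 and 923.8 in the other libraries, and HDAC2 was at 1086 in CTL_DMSO and at 1708, 1994 and 1710.

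Genes of the extracellular matrix were lower in ZNF521_DMSO. Of 100 core matrix genes that passed the filter, 28 were called lower and 3 higher, 79 were below no change, and the median log2 ratio was -0.43. Over all genes 6.44% were called lower and 4.96% higher. In the SAG pair the median of the same list was 0.04. By family, 12 of 37 collagen chains (median -0.49), 7 of 22 elastic fibre proteins and lysyl oxidases (-0.41), 3 of 19 basement membrane genes (-0.43), 4 of 13 matricellular genes (-0.37) and 2 of 9 small proteoglycans (-0.43) were called lower. In the SAG pair these medians were 0.03, -0.05, 0.19, 0.03 and -0.01.

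In the single matrix genes named here, CTL_DMSO lay apart from the other libraries. These genes were selected by the difference between CTL_DMSO and ZNF521_DMSO, which favours this outcome. COL5A1, a fibrillar collagen chain, stood at 9759 in CTL_DMSO and at 4316, 4023 and 4155 in ZNF521_DMSO, CTL_SAG and ZNF521_SAG. FN1, fibronectin, stood at 66824 against 35242, 34792 and 33515, and HSPG2, the basement membrane proteoglycan perlecan, at 1724 against 778.9, 715.0 and 704.5. LTBP3, which tethers latent TGF-beta to fibrils (-1.29), LAMA5, a laminin chain (-1.18), and BGN, the proteoglycan biglycan (-1.43), had the same order. Over the 100 genes CTL_DMSO was the highest library in 73 and ZNF521_DMSO the lowest in 23, against 5383 and 2959 of all 15220 genes.

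Some matrix genes were lower with ZNF521 in both pairs. THBS2, a thrombospondin, was at 303.6 and 116.3 in the DMSO pair and at 230.1 and 122.3 in the SAG pair. LOXL1, which cross-links elastin, was at 3263 and 1530, then at 2001 and 1239. ADAMTS2, a protease that trims procollagen (-1.01 and -0.69), and MFAP4, a glycoprotein of elastic fibres (-0.78 and -0.59), behaved alike. Members called higher in the DMSO pair included SPP1 (1.30) and LUM (0.88), LUM at 0.44 after the GC correction, under 1.5-fold. Of 17 TGF-beta response genes, of which several are matrix genes, 7 were called lower and none higher (median -0.48, -0.06 in the SAG pair). Called lower were 41.2% of them and 6.44% of all genes.

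Several lists of other secreted and surface proteins had medians below no change in the DMSO pair and near it in the SAG pair. In the IGF axis, 4 of 12 genes were called lower (median -0.42, 0.03 in the SAG pair), namely IGFBP5 (-1.02) and IGFBP4 (-0.68), which bind IGFs, and the receptors IGF2R (-0.99) and IGF1R (-0.91). Of 66 axon guidance genes, 13 were called lower and none higher (median -0.33, 0.03 in the SAG pair), among them SLIT3 (-0.99), PLXND1 (-0.76) and NRP2 (-0.73). Of 22 integrins, 5 were called lower and none higher (median -0.19, 0.01 in the SAG pair), among them ITGA11 (-0.95). The shares called lower in the IGF, axon guidance and integrin lists were 33.3%, 19.7% and 22.7%, against 6.44% of all genes. CTL_DMSO was the highest library for 7 of the 12 IGF genes, 47 of the 66 axon guidance genes and 9 of the 22 integrins. Over all genes it was the highest for 5383 of 15220, and the share of the integrins was near that. Less the median for its GC content, IGFBP4 was at -0.57, under 1.5-fold. ENG, a co-receptor for TGF-beta, was at 1435 in CTL_DMSO and at 494.9, 528.9 and 496.1 in ZNF521_DMSO, CTL_SAG and ZNF521_SAG. ACVR1, a BMP type I receptor, was at 2232 and 794.4 in the DMSO pair and at 1319 and 926.4 in the SAG pair. ENG was high in CTL_DMSO alone, and ACVR1 was not called in the SAG pair (-0.51). They were the only 2 called of 14 BMP, activin and TGF-beta receptors, which as a list were not lower. The median of that list was 0.15 (-0.01 after the GC correction), with 8 members above and 6 below no change.

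Histone genes were the list with the largest share called. Of 59 replication-dependent histone genes that passed the filter, 41 were called higher and none lower, 58 were above no change, and the median log2 ratio was 0.73 against 0.06 in the SAG pair. Called higher were 69.5% of them and 4.96% of all genes, and 6.44% of all genes were called lower. HIST1H3J stood at 272.4, 573.1, 387.9 and 405.8 in CTL_DMSO, ZNF521_DMSO, CTL_SAG and ZNF521_SAG, and HIST4H4 at 474.5, 957.0, 707.1 and 777.0. ZNF521_DMSO was the highest library in 48 of the 59 genes and CTL_DMSO the lowest in 55, so that the list was drawn apart at both ends. Over all 15220 genes these numbers were 3210 and 5601. These transcripts carry no poly-A tail in their replication-dependent form, and the library protocol is described both as enriched for poly-A and as depleted of ribosomal RNA. Histone genes are near-identical copies whose reads can be shared, and S phase and mitosis genes, measured beside them, had a median of 0.15, with 3 of 34 called higher and 2 lower. The part of cell cycle, of the library protocol and of shared reads in these values was not tested.

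Cytosolic ribosomal protein genes were shifted together and by less. Of 83, 77 were above no change, 10 were called higher and none lower, and the median was 0.32 (-0.03 in the SAG pair). RPL7 stood at 3908 in CTL_DMSO and at 7974, 9534 and 8444 in the other libraries, and RPL9 at 6685 against 11656, 9695 and 11227. CTL_DMSO was the lowest library in 74 of the 83, against 5601 of all 15220 genes. Small nucleolar and Cajal body RNAs, which guide the modification of ribosomal and spliceosomal RNA, varied more, with 20 of 87 called higher and 4 lower (median 0.19, 0.05 in the SAG pair). SNORA12 was at 497.6 and 1167 in the DMSO pair, while SNORA53 was at 1357 and 522.7. Such short RNAs often lie in introns of host genes, and their reads could be shared with those hosts.

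Interferon-stimulated genes were mostly above no change in ZNF521_DMSO, and for them ZNF521_DMSO itself lay apart from the other libraries. Of 32 such genes 7 were called higher and none lower, 28 were above no change, and the median log2 ratio was 0.45 against 0.18 in the SAG pair. Called higher were 21.9% of the list and 4.96% of all genes. ZNF521_DMSO was the highest of the 4 libraries in 27 of the 32, and CTL_DMSO was the lowest in 20, against 3210 and 5601 of all 15220 genes. Against the mean of the other 3 libraries, the median member was at 0.32 in ZNF521_DMSO, -0.25 in CTL_DMSO, -0.17 in CTL_SAG and 0.06 in ZNF521_SAG.

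IFIT1, which binds viral RNA, stood at 3604 in CTL_DMSO, 7007 in ZNF521_DMSO, 4541 in CTL_SAG and 5659 in ZNF521_SAG. ISG15, a ubiquitin-like modifier, stood at 12237, 19834, 12419 and 14751 in the same order, and IFI44L at 2259, 3699, 2845 and 3574. IFITM1, a membrane protein that blocks virus entry, was at 1273, 2065, 1454 and 1640. For these 4 genes both ZNF521 libraries lay above both control libraries. Their log2 ratios in the SAG pair were 0.32, 0.25, 0.33 and 0.17, and 0 of the 32 genes were called there. How many of all genes had this order was not counted. IFIT2 (0.72), MX2 (0.62) and ISG20 (0.67) were the other genes called, and the median of the list was 0.41 after the correction for GC content, the log2 ratio less its running median over genes ordered by GC. After it IFIT2 was at 0.55 and IFI44L at 0.40, under 1.5-fold.
Stretches of their RefSeq promoters (GRCh38.p14, plus strand) are shown because they hold the core of the interferon-stimulated response element, GAAANNGAAA, on either strand. Capitals mark 1 match in each, the IFIT1 stretch holds another in lower case, and the ISG15 stretch holds another that overlaps the capitals. The motif was chosen after the values of these genes were seen. They lie at chr10:89392495-89392554, chr1:1013359-1013418, chr1:78620259-78620318 and chr11:313975-314034, in the order printed.
IFIT1: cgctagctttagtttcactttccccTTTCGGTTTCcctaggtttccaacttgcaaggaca
ISG15: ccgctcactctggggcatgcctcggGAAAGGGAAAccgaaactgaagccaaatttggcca
IFI44L: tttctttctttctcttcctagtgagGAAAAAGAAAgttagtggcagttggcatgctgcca
IFITM1: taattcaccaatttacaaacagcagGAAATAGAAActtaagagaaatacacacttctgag
The motif was in 17 of 23 interferon-stimulated genes with a matched promoter, in 342 of all 11632 (2.94%), in 28 of 534 called higher (5.24%) and in 17 of 704 called lower (2.41%). It is part of what makes a gene interferon-responsive, so its presence in the list is background.

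Of 23 cytokines, chemokines and NF-kB targets that passed the filter, 7 were called higher and none lower, with a median of 0.47 (-0.05 in the SAG pair). Called higher were 30.4% of the list and 4.96% of all genes. CXCL8 stood at 119.6, 205.8, 138.7 and 128.2 in CTL_DMSO, ZNF521_DMSO, CTL_SAG and ZNF521_SAG, and PTGS2, an enzyme of prostaglandin synthesis, at 151.8, 254.2, 205.2 and 224.4. IL6 was at 19.1 and 43.2 in the DMSO pair and at 21.4 and 47.2 in the SAG pair. CXCL5 (1.53), CXCL1 (0.74), CXCL2 (0.66) and BIRC3 (0.60) were the others. After the GC correction CXCL8 was at 0.33, PTGS2 at 0.41 and BIRC3 at 0.17, under 1.5-fold.

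**Figure D4:**
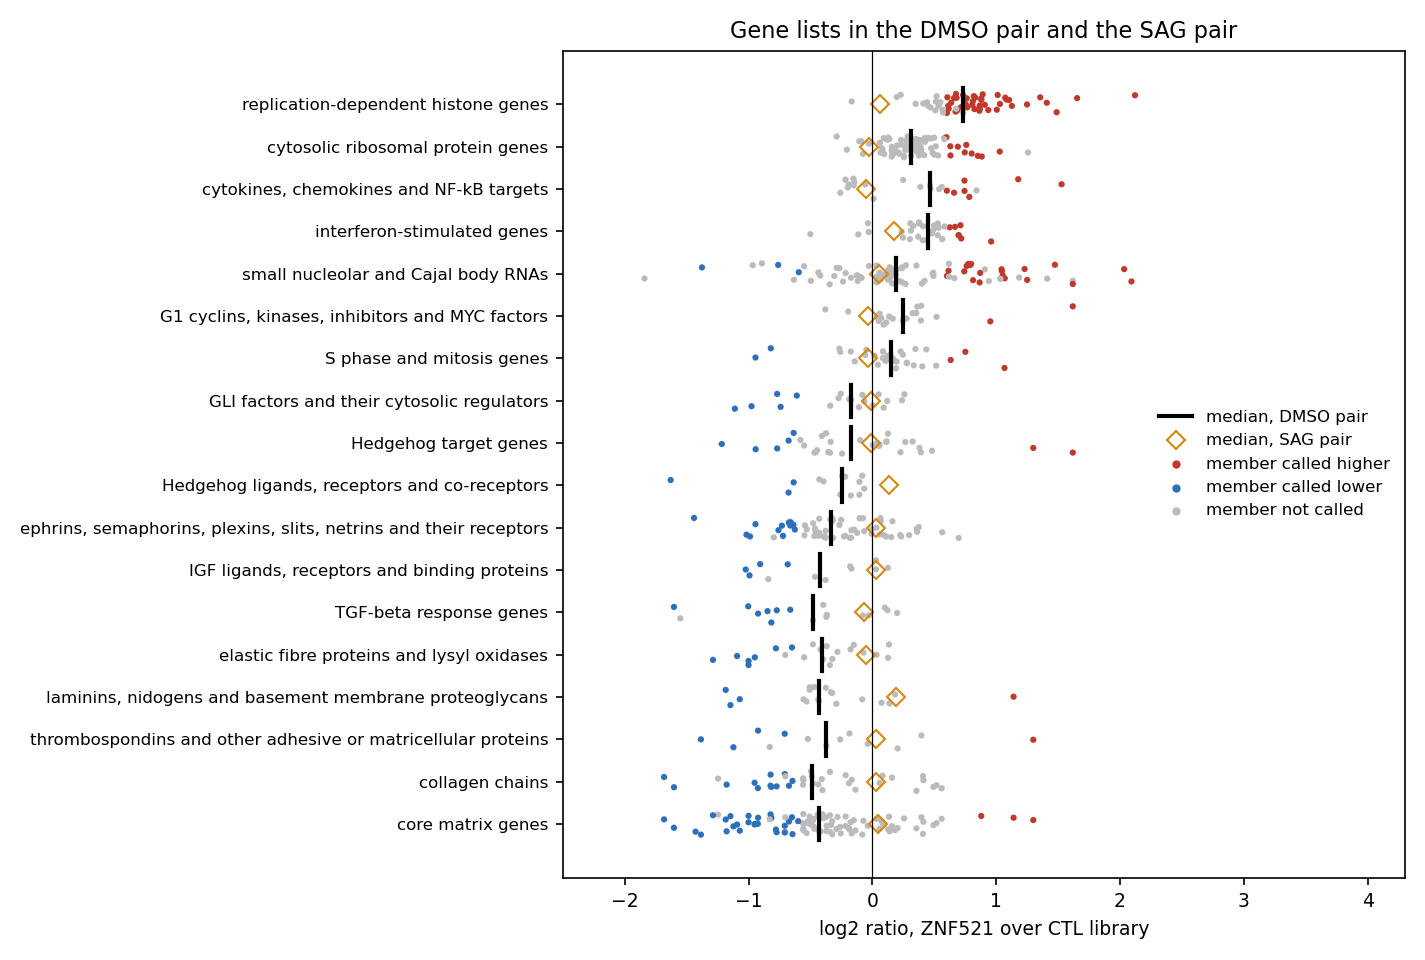
Log2 ratio of ZNF521_DMSO to CTL_DMSO for the members of 18 gene lists (1 point per gene, red called higher, blue called lower, grey not called), with the median of the list as a black bar and its median between ZNF521_SAG and CTL_SAG as a diamond. Histone genes sit farthest to the right (median 0.73) and collagens farthest to the left (-0.49), while the diamonds lie nearer to 0, those of histone genes at 0.06, collagens at 0.03 and interferon-stimulated genes at 0.18; SNORD62B, at 0 counts in ZNF521_DMSO, has no ratio and is not drawn.

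Few of the called genes were also called between ZNF521_SAG and CTL_SAG, where 1.38% of 15140 genes were called higher and 1.16% lower. Of the 755 genes called higher without agonist, 32 (4.24%) were called higher there and 8 lower. Of the 981 called lower, 47 (4.79%) were called lower there and 6 higher. The shares in the same direction were thus above the background of the SAG pair, but 432 of the 755 (57.2%) and 501 of 976 (51.3%) merely had the same sign. The median log2 ratio of the genes called higher was 0.77 with DMSO and 0.03 with SAG, and that of the genes called lower was -0.90 and -0.01.

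The genes called in both pairs, some of which are named here after their values were seen, included secreted and membrane proteins. TSPAN1, a tetraspanin of the cell membrane, was at 205.1 and 489.8 in the DMSO pair and at 178.2 and 352.7 in the SAG pair. PCSK1, a protease that processes prohormones, was at 711.7 and 1288, then at 606.7 and 983.7. GUCY1A2, a subunit of soluble guanylate cyclase, was at 285.5 and 476.4, then at 225.5 and 437.0. HSH2D, an adaptor protein (1.03 and 1.15), ERBB3, a receptor of the EGF family (0.63 and 1.33), and CD40, a receptor of the TNF family (0.73 and 0.93), were higher in both. Lower in both were HR, a nuclear co-repressor (-1.12 and -0.60), and ADRB1, the beta-1 adrenergic receptor (-0.73 and -0.87).

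Read over all called genes, CTL_DMSO was the library that lay apart. These genes were selected by the difference between CTL_DMSO and ZNF521_DMSO, which by itself sets these 2 libraries apart. The SD over the 9161 genes given above does not rest on that selection. Against the mean of the other 3 libraries, genes called higher had a median of -0.74 in CTL_DMSO and of 0.29 in ZNF521_DMSO, 0.23 in CTL_SAG and 0.28 in ZNF521_SAG. Genes called lower had a median of 0.83 in CTL_DMSO and of -0.38, -0.22 and -0.24 in the same order. CTL_SAG, a control library, lay nearer to ZNF521_DMSO than to CTL_DMSO in 602 of the 755 genes called higher (79.7%) and in 783 of 975 called lower (80.3%), against 67.4% of all genes. The design has 1 library of each kind, so the state of these control cells, their handling and their library cannot be told apart. A ZNF521 effect shared by both treatments, which is another quantity than the effect within DMSO, was fitted over the 4 libraries with treatment as a block and 1 residual degree of freedom. By edgeR's quasi-likelihood test with Benjamini-Hochberg adjustment ZNF521 itself passed (log2 ratio 1.47, adjusted p = 0.00271). PCK1 (2.03, adjusted p = 0.0640), NR0B1 (1.22, adjusted p = 0.289) and POLR2A (-1.12, adjusted p = 0.664) did not.

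The ratio between the DMSO libraries varied with transcript GC. Median log2 ratio was 0.27 in the quintile of genes with the lowest GC content, and in the next quintiles it was 0.08, -0.04, -0.09 and -0.13. In the SAG pair these medians lay between -0.03 and 0.01. In the lowest quintile 13.7% of genes were called higher and 1.65% lower, while in the highest 1.55% were called higher and 11.5% lower. Genes called higher had a median GC content of 41.3% and genes called lower of 56.2%. With transcript length the median went from 0.06 in the shortest quintile to -0.08 in the longest.

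After the running median over GC content was taken off, 441 of the genes with a GC value were called higher and 823 lower. Of these, 358 and 713 had been called so before. Before the correction, 696 of the genes with a GC value were called higher and 955 lower. The median of the core matrix genes was then -0.35, that of the Hedgehog targets -0.08, that of the ribosomal protein genes 0.35 and that of the interferon-stimulated genes 0.41. ZNF521 stood at 1.52, PCK1 at 2.42, POLR2A at -1.98 and COL1A1 at -1.50, close to their uncorrected ratios. CENPQ went from 2.01 to 1.56 and GLI1 from -0.77 to -0.68. Of the 59 histone genes, 54 were matched to the annotation through their older symbols. Their median transcript GC content was 57.0% and their median log2 ratio 0.74 before and 0.79 after the correction, with 37 of 38 called higher still past 1.5-fold. Histone genes were thus higher although GC-rich genes were on the whole lower. What part of the ratios goes with GC content for technical or for other reasons was not tested.

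**Figure D5:**
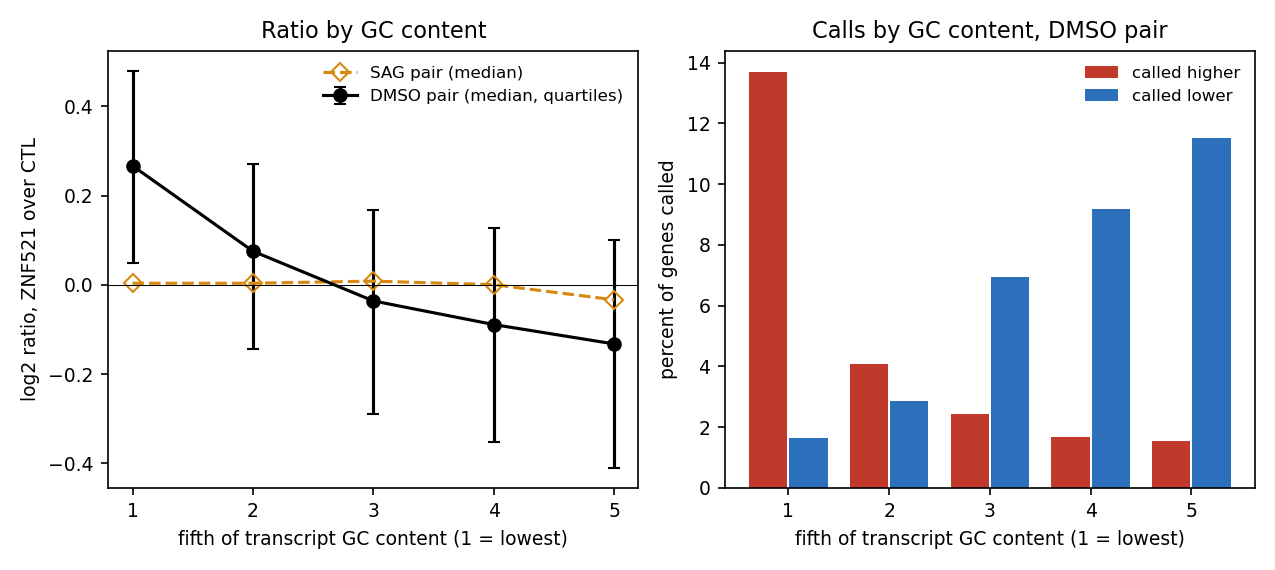
Left, median log2 ratio in quintiles of genes by transcript GC content, for ZNF521_DMSO over CTL_DMSO (black, bars are quartiles over genes) and for ZNF521_SAG over CTL_SAG (diamonds); right, percent of the genes of each quintile called higher (red) or lower (blue) in the DMSO pair. The DMSO medians go from 0.27 to -0.13 and the share called lower from 1.65% to 11.5%, while the SAG medians stay near 0.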

How the data were processed

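Whole raw counts per gene and a normalized table were used as deposited. Reads (pairs of 50 nt) were mapped against hg38 and tallied per gene by the authors using STAR 2.7.0e. For the deposited normalized table (signal), the authors divided each library's counts by its DESeq2 size factor. The 503 genes missing from that table had a total count of at most 1. Annotation, strand setting and read filters are not given in the sources used here. No column was left unused.

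For each gene the ratio of normalized counts of ZNF521_DMSO to CTL_DMSO was computed with the exact 95% interval (Clopper-Pearson, Python 3.11.15, scipy 1.17.1), for genes with at least 10 raw counts in at least 1 library of the pair. Calls needed 1.5-fold and an interval on 1 side of no change. The interval and the calls were tried on simulated counts that held counting error only. That trial says nothing of the spread between libraries. GENCODE (hg38) gave positions and transcript GC content, with 19803 of 20363 symbols (97.2%) matched, and histone genes were matched through RefSeq synonyms for a separate GC check added after seeing the data. The GC correction subtracts a running median over windows of 501 genes. Promoters came from RefSeq. In all, 47 gene lists were described by counts and medians.

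Named genes were ZNF521, the 15 genes in each direction with the interval bound farthest from no change among those with at least 50 normalized counts in 1 library, up to 5 members of each list by the same bound, any passing member of the Hedgehog receptor and GLI lists, and GLI1, GLI2, PTCH1 and HDAC1. Other members are named where few were called, after their values were seen. The genes, lists and the comparison were chosen with earlier results of these data known. Alternatives were TMM factors (edgeR 4.0.16, R 4.3.3), total counts, other filters on low counts, a 2-fold threshold and the GC correction. A model over the 4 libraries leaves no residual degree of freedom for an effect within DMSO. An effect shared by both treatments was tested with treatment as a block (edgeR quasi-likelihood test, TMM), added after seeing the data. RT-qPCR, chromatin and reporter assays of the study were not analysed here, and values of a few genes are not reported here.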

Additional observations from a re-analysis of the deposited data

Results flagged for a closer look

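Under SAG a few of the leading genes went the opposite way. With 1 library per condition this difference was not tested. SF3B6 had a log2 ratio of 1.40 with DMSO and -0.16 with SAG. SRRM2 was at -1.69 and 0.15, COL1A1 at -1.60 and 0.11, and USB1 at -1.79 and 0.51. The median of the core matrix genes was -0.43 with DMSO and 0.04 with SAG. In these 4 genes CTL_DMSO lay apart from the other 3 libraries, which held 1031, 1177 and 1050 normalized counts of SF3B6 (ZNF521_DMSO, CTL_SAG, ZNF521_SAG) against 391.0 in CTL_DMSO. What part the CTL_DMSO library has in them was not tested.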

How the results depend on the processing

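No paired analysis was possible because, within DMSO, each group has 1 library. Over both treatments, with treatment as a block (added after seeing the data), edgeR's quasi-likelihood test gave 1 gene higher and 0 lower at an adjusted p under 0.05, and 368 and 481 at an unadjusted p under 0.05, for the effect shared by DMSO and SAG. At 2-fold, 179 genes were called higher and 384 lower. Less the running median over GC content, 441 of the genes with a GC value were called higher, against 696 of these genes before. Under TMM factors, total counts, at least 10 counts in both libraries, no filter, and a mean count of at least 50, the genes called higher numbered 746, 682, 715, 770 and 594, and those called lower 987, 1044, 842, 1021 and 684. ZNF521 and the medians of the core matrix and Hedgehog target genes kept their direction under the alternatives run on them, as did 269 of 275 medians of the other lists. The 6 that changed sign belonged to 5 lists, with a main median of at most 0.15. The other leading genes kept their call in all 86 values computed under TMM factors, total counts and the GC correction. Genes under about 50 counts have wide intervals, with a median half-width of 1.03 on the log2 scale for a mean count of 5 to 50 against 0.10 for 1000 to 5000. No replicate exists, so that the spread between libraries of 1 condition is unknown.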

Other observations

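Of the gene classes, snoRNA genes had the largest share called higher (15 of 75, with 3 lower, against 4.96% and 6.44% of all genes). Ion channel subunits had 4 of 106 called higher and 20 lower (median -0.23, 0.10 in the SAG pair), among them the potassium channels KCND1 (-1.15) and KCNMA1 (-0.92). G protein-coupled receptors had 6 of 144 called higher and 18 lower (median -0.15, 0.03 in the SAG pair), among them LGR6 (-1.88) and ADGRF5 (-1.73). EDNRB, an endothelin receptor, was at 3213 in CTL_DMSO and at 1703, 1913 and 2064 in ZNF521_DMSO, CTL_SAG and ZNF521_SAG. Receptor tyrosine kinases had 1 of 35 called higher and 5 lower (median -0.27, 0.04 in the SAG pair), of which PDGFRB was at -0.98 with DMSO and -0.58 with SAG.

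Of 34 S phase and mitosis genes, 3 were called higher (8.82%) and 2 lower (5.88%), near the 4.96% and 6.44% of all genes. The called members thus went both ways. CDK1 (1.07), CENPE (0.75) and NUSAP1 (0.63), which act in mitosis, were called higher (0.64, 0.32 and 0.57 after the GC correction, CENPE and NUSAP1 thus under 1.5-fold), while MKI67, a marker of cycling cells, was at 4713 in CTL_DMSO and 2450 in ZNF521_DMSO (-0.94) and TYMS, an enzyme of DNA precursor synthesis, was at -0.82. Their log2 ratios in the SAG pair were -0.06, 0.01, -0.21, 0.02 and -0.04 in this order. Of 20 p53 target genes PMAIP1 (1.20) and FAS (0.88), which promote apoptosis, were called higher and none lower (median of the list 0.18, -0.04 in the SAG pair). That is 10% called higher against 4.96% of all genes. PMAIP1 was at 273.4 in CTL_DMSO and at 628.7, 526.6 and 540.0 in ZNF521_DMSO, CTL_SAG and ZNF521_SAG. FAS was at 148.8 against 274.7, 287.6 and 303.7, so that both were low in CTL_DMSO alone. HSPA5, the main chaperone of the endoplasmic reticulum, was at 6786 in CTL_DMSO and at 3181, 3414 and 3610 in ZNF521_DMSO, CTL_SAG and ZNF521_SAG, the 1 gene called among 15 chaperones of the unfolded protein response.

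Chromosome medians of the log2 ratio ran from -0.09 on chromosomes 16 and 22 to 0.13 on chromosome 4. The median transcript GC content was 57.0% and 57.1% on chromosomes 16 and 22 and 44.02% on chromosome 4. After the GC correction the medians were -0.02, -0.01 and 0.01.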
